A study of Mus musculus with 19 samples.

Results

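CD8 is the coreceptor that lets a T cell contact MHC class I while its T cell receptor (TCR) reads the peptide. It is built from an alpha chain, encoded by Cd8a, and a beta chain, encoded by Cd8b1. On thymocytes and conventional cytotoxic T cells the chains pair as an alpha-beta heterodimer, and the alpha chain can also reach the surface as an alpha-alpha homodimer, a form known from gamma-delta and other unconventional T cells, whereas the beta chain needs the alpha chain to do so. The tail of the alpha chain holds the kinase Lck. Double-positive (DP) thymocytes carry CD8 together with CD4, and after positive selection a cell keeps one coreceptor and silences the other.

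The members were found by name in the deposited matrices, as the gene rows Cd8a (ENSMUSG00000053977) and Cd8b1 (ENSMUSG00000053044), 2 of 28692 genes, and as the antibodies to CD8a and CD8b, 2 of 111 antibodies counted in every lane. Both genes and both antibodies were found in every sample. Their RNA and surface protein were counted in the same cells by CITE-seq, in which antibodies with DNA tags are read out beside the transcripts of each cell. The chains are described by level and by their balance, the ratio of alpha chain to beta chain UMIs (unique molecular identifiers, tags that let each captured molecule be counted once). Because the transcripts and the antibodies are captured with unequal efficiency, a ratio compares samples with each other and does not give the number of chains on a cell.

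Thymocytes of 17 female mice aged 4 to 8 weeks were measured on 19 lanes in 3 experiments. The 5 wild-type (WT) mice were C57BL/6, and each of 6 lineage-restricted genotypes had 2 mice. Among the CD4-fated genotypes, AND and OT-II mice carry a transgenic TCR that recognizes MHC class II, and MHCI-/- mice lack B2m, which MHC class I needs to reach the surface. Among the CD8-fated genotypes, F5 and OT-I mice carry a transgenic TCR that recognizes MHC class I, and MHCII-/- mice lack H2-Ab1. AND and F5 mice were in addition Rag1-/-, and the F5 TCR is driven by the CD2 promoter. The MHCI-/- and MHCII-/- mice and WT replicates 1 to 3 were sorted for CD5+TCRb+ cells, the others were not sorted. All OT-I and OT-II mice were in experiment 3, as were the unsorted WT mice. Against the other lineage-restricted genotypes, this pair of genotypes and that experiment cannot be told apart.

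After filters 69233 cells of 85389 barcodes were kept, with a median of 1490 to 7142 RNA UMIs per cell over the lanes. The lanes held 9893333 to 43303999 RNA UMIs and 4484116 to 34762051 antibody UMIs, and 695 of 71355 barcode sequences occurred in more than 1 lane. B2m RNA was 46.5 and 48.5 CPM (RNA UMIs scaled to a fixed library total) in the MHCI-/- mice and 401 to 1256 CPM in the other 15 mice. Per 10000 antibody UMIs, those of the antibody to I-A/I-E, the MHC class II molecules, numbered 2.22 and 2.23 for MHCII-/- and 23.9 to 124 for the other 15 mice.

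One set of libraries stood apart in the RNA of these genes. By the numbers in their titles, the libraries of experiment 3 fall into 2 sets, one with replicate 4 of WT and replicate 1 of OT-I and OT-II and a later one with replicate 5 of WT and replicate 2 of OT-I and OT-II. Between these sets 490 of 19886 genes differed by over 0.75 on the log2 scale in the same direction in all 3 genotypes, 1172 by over 0.5 and 189 by over 1. Over all kept cells, Cd8a UMIs per Cd8b1 UMI were 0.358 in WT replicate 5, 0.531 in OT-I replicate 2 and 0.479 in OT-II replicate 2, and between 0.634 and 0.961 in the other 14 mice. The later set did not overlap the others in the RNA ratio. The ratio of CD8a to CD8b antibody UMIs did overlap, at 0.531 to 0.653 in the later set and 0.465 to 0.725 in the other 14 mice. Median RNA depth was also lower in the later set, at 1518 to 3140 UMIs per cell against 2998 to 7142. Its part in the RNA ratio was not tested. Tests of the RNA ratio are therefore given with and without this set.

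**Figure D1:**
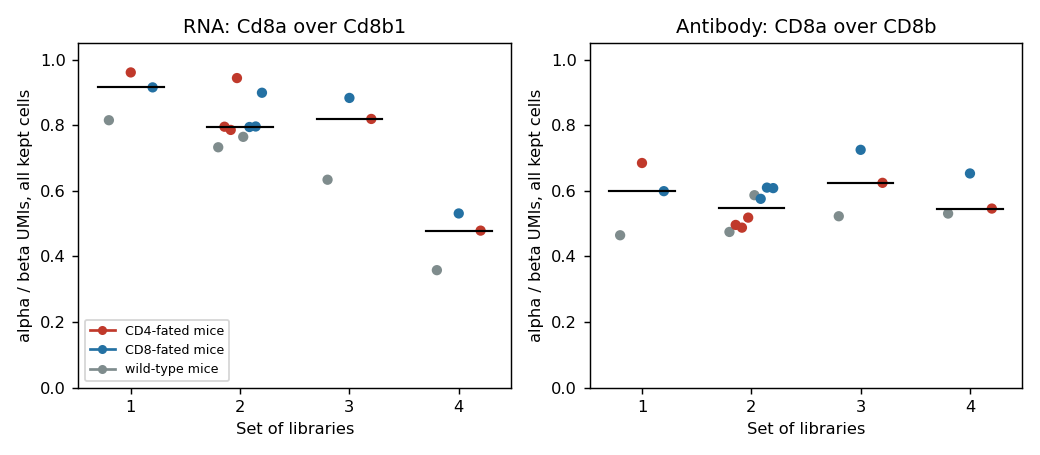
Ratio of alpha chain to beta chain UMIs over all kept cells of each mouse, by set of libraries (1 and 2, experiments 1 and 2; 3 and 4, the earlier and later libraries of experiment 3); each point is 1 mouse and the bar is the median of a set. In RNA (left) the 3 mice of set 4 lie between 0.358 and 0.531, below all other mice, and in antibody counts (right) the sets overlap.

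The genes lie side by side on mouse chromosome 6 (GRCm38, GENCODE M21 positions), both on the forward strand. Cd8b1 spans chr6:71322788-71337494 and Cd8a chr6:71373427-71379173, with 35932 bases between them. In RefSeq's table of promoters (GRCm38.p6), 1 of the 2 genes, Cd8a, has an entry. It is shown because the RNA of both genes fell and rose together between the lineages. The window chr6:71373177-71373476 on the forward strand reads from 250 bases before the start of Cd8a to 50 after it, and the capitals mark a match to a short motif of RUNX proteins, the family of Runx3:

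Cd8a promoter: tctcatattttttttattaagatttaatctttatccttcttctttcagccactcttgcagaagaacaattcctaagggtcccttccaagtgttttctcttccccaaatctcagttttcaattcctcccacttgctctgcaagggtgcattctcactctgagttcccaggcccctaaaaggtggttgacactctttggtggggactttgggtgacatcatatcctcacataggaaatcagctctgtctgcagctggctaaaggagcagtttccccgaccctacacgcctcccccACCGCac

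Searched on both strands, the RUNX motif GCGGT had 1 match, which begins 44 bases into the transcribed side, and is held by 27.7% of the 32851 windows of this length in the table. The longer RUNX motif ACCACA had no match and is held by 16.8% of the windows. The E-box CAGCTG, a site of E proteins, had 1 match, 2 bases before the start, and is held by 16.3%. The GATA motif AGATAA, the ETS motif AGGAAG and the TCF motif CTTTGA had no match. A match gives the letters of the window and not a bound site.

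The course of both chains through positive selection was compared between the lineages. Cells from signaled DP to mature single-positive (SP), 27995 in all, were ordered by diffusion pseudotime without Cd8a, Cd8b1 and Cd4 among the genes, and cut into 6 stages of equal size. Antibodies did not enter the order. Cells of a lineage-restricted mouse that fell on the branch of the other lineage, 354 in all, were left out, and the branches had been drawn from markers other than the coreceptors. Zbtb7b and Gata3 were among the markers of the CD4 branch, and Runx3 among those of the CD8 branch. Sums over the cells of a mouse and stage were compared, with the mouse as the replicate and at least 10 cells required. All 12 lineage-restricted mice had enough cells in stages 1 to 5. At stage 6 the F5 and OT-II mice did not, which left 4 mice of each lineage. A sum over cells cannot tell a change in every cell from a change in the share of positive cells, so shares are given further on.

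At the first stages the lineages carried the same order of magnitude of both chains. At stage 1, Cd8a RNA was 616 to 1676 CPM in CD4-fated mice (median 1063, 6 mice) and 755 to 1391 CPM in CD8-fated mice (median 1190, 6 mice). The CD4-fated range of Cd8b1 RNA was 765 to 1661 CPM (median 1214), and the CD8-fated range was 914 to 2361 CPM (median 1386). The groups overlapped throughout for both genes. In edgeR's quasi-likelihood test, with the Benjamini-Hochberg adjustment over all genes, the log2 difference (CD8-fated minus CD4-fated) was 0.10 ± 0.21 (SE) for Cd8a and 0.21 ± 0.19 for Cd8b1 at stage 1, both with adjusted p = 0.999. At stage 2 it was 0.26 ± 0.20 and 0.14 ± 0.19, again without a call. At these stages 0% and 0% of the genes tested were called higher in CD8-fated mice.

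From stage 3 on, the RNA of both chains was higher in the CD8-fated mice. Cd8a RNA at stage 3 was 36.8 to 145 CPM in CD4-fated mice (median 73.5) and 134 to 721 CPM in CD8-fated mice (median 550). For Cd8b1 the ranges were 89.1 to 207 CPM (median 105) and 144 to 832 CPM (median 612). The highest CD4-fated mouse therefore still overlapped the lowest CD8-fated mouse in both genes. The log2 difference was 2.25 ± 0.23 for Cd8a (edgeR, adjusted p = 3.7e-05) and 1.90 ± 0.23 for Cd8b1 (edgeR, adjusted p = 2.0e-04). At stage 4 the ranges no longer overlapped, and the difference grew to 4.14 ± 0.29 for Cd8a and 3.43 ± 0.23 for Cd8b1. At stages 3 and 4, 0.86% and 2.72% of the genes tested were called higher in CD8-fated mice.

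By the end of the order the lineages lay far apart. At stage 5, Cd8a RNA was 13.3 to 26.5 CPM in CD4-fated mice (median 23.1) and 405 to 1184 CPM in CD8-fated mice (median 815). Cd8b1 RNA was 45.04 to 85.3 CPM (median 69.6) and 566 to 1526 CPM (median 1302). No CD4-fated mouse came near a CD8-fated mouse in either gene. The log2 difference was 5.19 ± 0.24 for Cd8a (edgeR, adjusted p = 1.4e-09) and 4.02 ± 0.21 for Cd8b1 (edgeR, adjusted p = 5.1e-09), where 2.32% of the genes tested were called higher in CD8-fated mice.

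Stage 6 showed Cd8a RNA at 2.66 and 17.4 CPM in AND replicates 1 and 2 and at 13.2 and 8.23 CPM in MHCI-/- replicates 1 and 2. In the CD8-fated mice it was 767 and 789 CPM in MHCII-/- and 744 and 508 CPM in OT-I. Cd8b1 RNA was 47.9 and 63.5 CPM in AND, 56.5 and 51.2 CPM in MHCI-/-, 1233 and 1225 CPM in MHCII-/- and 996 and 1214 CPM in OT-I. Cd8b1 RNA was thus the more abundant of the chains in UMIs in all 8 mice. The edgeR difference of this stage rests on the MHCI-/- and MHCII-/- mice. It was 6.20 ± 0.48 on the log2 scale for Cd8a (edgeR, adjusted p = 5.0e-05) and 4.46 ± 0.27 for Cd8b1 (edgeR, adjusted p = 1.0e-05). In this fit 3.24% of the genes tested were called higher in CD8-fated mice.

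The surface proteins were first called at stage 4, 1 stage after the RNA. At stage 3, where both RNAs were called, antibody to CD8a was 83.2 to 288 per 10000 antibody UMIs in CD4-fated mice (median 190) and 129 to 623 in CD8-fated mice (median 329). Antibody to CD8b was 106 to 414 (median 359) and 151 to 969 (median 594). Both pairs of ranges overlapped, and the log2 difference was 1.02 ± 0.32 for CD8a (edgeR over the 111 antibodies, adjusted p = 0.245) and 0.92 ± 0.31 for CD8b (edgeR, adjusted p = 0.25). Whether the protein differs from the RNA in the stage of the first call was not tested. At stages 1, 2 and 3, 0%, 0% and 0% of the antibodies were called higher in CD8-fated mice, and the chains differed by 0.28 to 0.45 on the log2 scale at stages 1 and 2.

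At stage 4 both proteins were called. CD8a was 36.9 to 74.3 per 10000 in CD4-fated mice (median 46.03) and 202 to 837 in CD8-fated mice (median 474), and CD8b was 57.2 to 98.4 (median 66.8) and 237 to 1560 (median 777). The ranges no longer overlapped. The log2 difference was 3.24 ± 0.41 for CD8a (edgeR, adjusted p = 1.9e-04) and 3.34 ± 0.48 for CD8b (edgeR, adjusted p = 3.8e-04), where 2.7% of the antibodies were called higher in CD8-fated mice. It widened to 4.98 ± 0.39 and 5.197 ± 0.46 at stage 5, with 6.31% of the antibodies called higher. At stage 6, where it rests on the MHCI-/- and MHCII-/- mice, it was 6.36 ± 0.61 and 6.19 ± 0.61, with 15.3% called higher. At stage 6 CD8a was 16.5 and 31.1 per 10000 in AND and 10.04 and 7.28 in MHCI-/-, against 774 and 780 in MHCII-/- and 661 and 592 in OT-I.

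**Figure D2:**
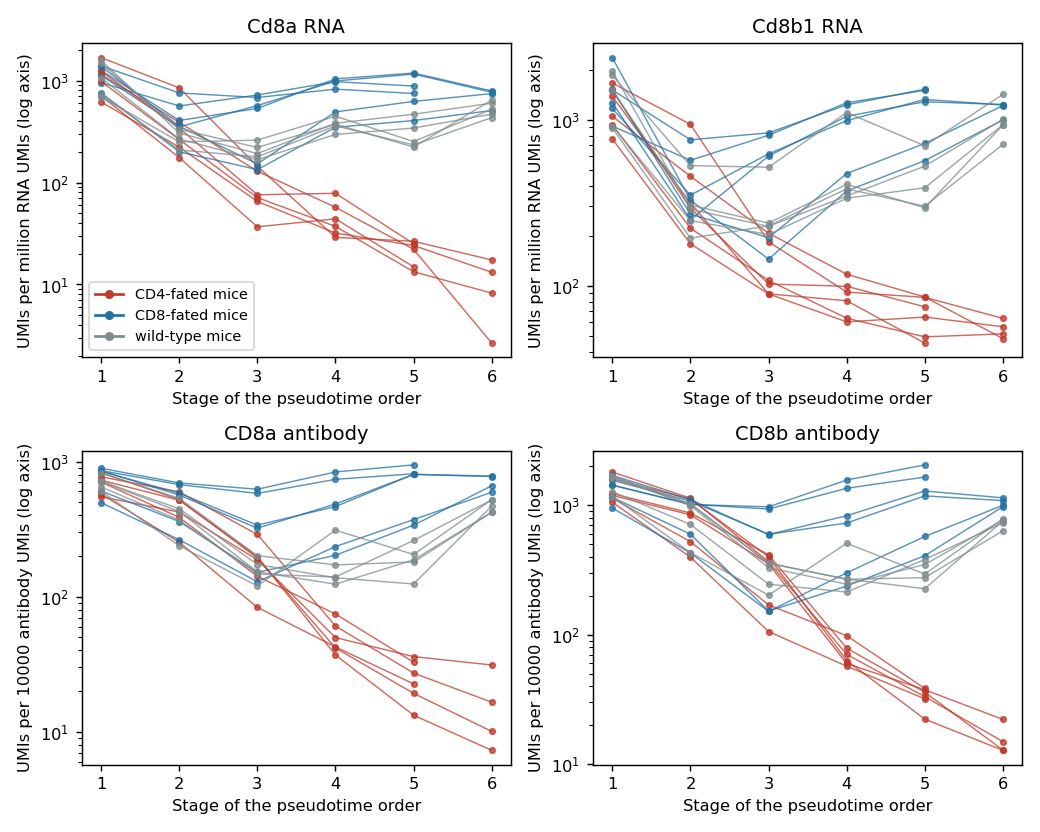
Level of each chain by stage, with 1 line per mouse, as CPM (top) or per 10000 antibody UMIs (bottom), both on log axes. The lineages overlap at stage 1. CD4-fated mice fall at every chain to a stage 6 Cd8a level of 2.66 to 17.4 CPM, CD8-fated mice stay high or recover to 508 to 789 CPM, and the means of the wild-type mice, which hold both lineages, lie between those of the lineages at stages 4 to 6.

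Within the CD4-fated mice each chain fell in the early and again in the late part of the order. From stages 1 and 2 to stages 3 and 4 the mean change per mouse on the log2 scale was -3.26 ± 0.46 (SD, n = 6) for Cd8a RNA, -2.63 ± 0.42 for Cd8b1 RNA, -2.55 ± 0.26 for CD8a protein and -2.84 ± 0.27 for CD8b protein. From stages 3 and 4 to stages 5 and 6 it was a further -1.87 ± 0.74, -0.73 ± 0.35, -2.11 ± 0.70 and -2.37 ± 0.76. In the F5 and OT-II mice, 4 of the 12 mice of both lineages, stage 6 held under 10 cells and was left out, so that their late change, here and for the ratios, ends at stage 5. Each of these 8 changes had the same sign in all 6 mice, for which the exact sign-flip test gives p = 0.031, the smallest it can reach. The late change of the RNAs did not keep that call in every setting. For Cd8a it was -1.22 with doublets kept (exact sign-flip p = 0.0625) and -0.93 with cells on the branch of the other lineage kept (exact sign-flip p = 0.0938), and for Cd8b1 it was -0.46 with the latter (exact sign-flip p = 0.0938).

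The CD8-fated mice took another course. Their early change was -0.36 ± 0.65 (SD, n = 6) for Cd8a RNA, -0.30 ± 0.99 for Cd8b1 RNA, -0.74 ± 0.49 for CD8a protein and -0.95 ± 0.83 for CD8b protein. CD8a protein fell in 6 of 6 mice (exact sign-flip test, p = 0.031), and the others did not pass (exact sign-flip p = 0.281, 0.531 and 0.0625). Their late change was 0.53 ± 0.54 for Cd8a RNA, which did not pass the exact sign-flip test (p = 0.0625), and was 0.06 ± 0.24 with the cells ordered by a maturation score and 0.07 ± 0.35 with doublets kept. Cd8b1 RNA rose by 0.97 ± 0.53, CD8a protein by 0.92 ± 0.49 and CD8b protein by 1.06 ± 0.55, each in 6 of 6 mice (exact sign-flip test, p = 0.031). The genotypes of this lineage were unlike in the middle of the order. OT-I mice dipped to a mean of 143 CPM of Cd8a at stage 3, whereas F5 mice stood at 701 CPM and MHCII-/- mice at 550 CPM, and at stage 5 the OT-I mice were back at 515 CPM. Cd8b1 followed, with 169 CPM at stage 3 in OT-I, 818 CPM in F5 and 612 CPM in MHCII-/-. Of 4580 ordered F5 cells, 4226 lay in 2 sub-clusters in which 0.726% and 1.66% of the cells were wild-type, so that a stage of F5 is not the same mix of cells as that stage in OT-I or MHCII-/-. OT-I and MHCII-/- were unlike later in the order, since 351 OT-I cells lay in a sub-cluster with 1732 AND, 567 OT-II and 0 MHCII-/- cells. The median rank of this sub-cluster was 0.748 of the order, which is later than stage 3. Its mean marker scores were 0.72 for CD4 and 0.19 for CD8, which gave it no branch. Its OT-I cells were therefore not left out.

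The late change differed between the lineages for each level. The difference (CD8-fated minus CD4-fated) was 2.40 on the log2 scale for Cd8a RNA, 1.71 for Cd8b1 RNA, 3.04 for CD8a protein and 3.44 for CD8b protein. Each had an adjusted p = 0.0026 in the exact permutation test over 6 against 6 mice (two-sided, Benjamini-Hochberg over 6 quantities), with an unadjusted p of 0.00216, the smallest this design allows. With doublets kept the late difference was smaller, at 1.29 for Cd8a RNA, 1.14 for Cd8b1 RNA, 1.84 for CD8a protein and 2.20 for CD8b protein, and with cells on the branch of the other lineage kept it was 1.45 for Cd8a RNA, each still past the threshold (exact permutation test, adjusted p = 0.00433 to 0.0162). The early change differed as well, by 2.90, 2.33, 1.81 and 1.90, each with adjusted p = 0.00325 in the same exact permutation test. Within the 4 sets of libraries the late difference ran from 1.92 to 3.32 for Cd8a RNA and from 1.25 to 2.59 for Cd8b1 RNA, and for the proteins from 2.78 to 3.73. Its direction was the same in every set, though sets 1, 3 and 4 hold 1 mouse of each lineage and set 2 holds 3 of each.

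The balance of the RNAs moved toward the beta chain late in the order in both lineages and in wild-type mice, and further in CD4-fated mice. From stages 3 and 4 to stages 5 and 6 the log2 ratio changed by -0.45 ± 0.12 in the CD8-fated lineage, in 6 of 6 mice (exact sign-flip test, p = 0.031), and by -0.40 to -0.31 in the 5 wild-type mice. The log2 ratio of Cd8a to Cd8b1 UMIs was -1.09 to 0.13 in CD4-fated mice at stage 1 (median -0.07) and -1.01 to 0.11 in CD8-fated mice (median -0.14). At stage 4 it was -1.65 to -0.05 (median -0.97) against -0.58 to 0.41 (median -0.23). At stage 5 it was -2.25 to -0.83 (median -1.76) against -1.03 to 0.14 (median -0.46), and at stage 6, with 4 mice of each lineage, -3.87 to -1.84 against -1.26 to -0.42. The ranges overlapped at stage 5 and not at stage 6.

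No single stage passed the test of the RNA ratio. The mean difference was -0.09 and 0.13 at stages 1 and 2, 0.42 at stage 3, 0.75 at stage 4, 1.196 at stage 5 and 1.85 at stage 6. The exact permutation test over mice gave unadjusted p = 0.0303, 0.0173, 0.00433 and 0.0286 for stages 3 to 6, and adjusted p = 0.0909, 0.0909, 0.0519 and 0.0909 over 6 stages and both ratios. At stage 6, 4 mice against 4 cannot reach an exact p below 0.0286. Of the 12 tests 4 had an unadjusted p under 0.05, all of the RNA ratio. Without the later set of libraries the adjusted p of stages 3 to 6 was 0.0952, 0.119, 0.0952 and 0.114 in the exact permutation test.

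The change of the RNA ratio along the order did differ. Its late change was -1.19 ± 0.52 (SD, n = 6) in the CD4-fated and -0.45 ± 0.12 in the CD8-fated lineage, a difference of 0.74 with adjusted p = 0.0026 in the exact permutation test, and 0.80 with adjusted p = 0.00952 without the later set. The early change was -0.62 ± 0.32 and -0.06 ± 0.37, a difference of 0.56 with adjusted p = 0.031 in the exact permutation test, and 0.56 with adjusted p = 0.0476 without the later set. This early call was lost in 6 of 25 alternatives, among them leaving out either AND mouse or either MHCI-/- mouse. The late difference was positive in each set of libraries, at 1.56, 0.70, 0.31 and 0.45 in sets 1 to 4. Sets 1, 3 and 4 hold 1 mouse of each lineage, and set 2 holds 3 of each. This late call depended on which cells entered the order and how they were ordered. The difference was 0.06 (exact permutation test, adjusted p = 0.881) with the 354 cells on the branch of the other lineage kept, and 0.16 (adjusted p = 0.639) with doublets kept. In all, the call was lost in 6 of 27 alternatives.

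The late ratio rests on few molecules in the CD4-fated mice. At stage 6, 2 Cd8a UMIs and 36 Cd8b1 UMIs were counted in 169 cells of AND replicate 1, and 20 and 73 in 204 cells of AND replicate 2. MHCI-/- mice had 14 and 60 in 227 cells of replicate 1 and 18 and 112 in 325 cells of replicate 2. Stage 5 gave 8 to 83 Cd8a UMIs and 40 to 320 Cd8b1 UMIs per CD4-fated mouse. B-like cells, described further on, had 148 CPM of Cd8a and 389 CPM of Cd8b1 in WT replicate 5, of the later set of libraries, and no UMI of either gene in the 47 cells of WT replicate 4 and OT-I replicate 1. No AND, OT-II or MHCI-/- mouse had 20 of these cells, so that the background in the CD4-fated mice could not be read from them. Free RNA from broken DP cells could be a part of such low counts, which was not tested. When the lowest class level of the mouse was subtracted from both chains, the late difference was 2.73 with adjusted p = 0.00779 in the exact permutation test. The late change was then -3.26 ± 1.58 (SD) in the CD4-fated and -0.52 ± 0.22 in the CD8-fated mice. This step cannot decide the part of background. CD8 SP-like cells of a CD4-fated mouse were as low as 15.9 CPM of Cd8a, within the range of these mice at stage 5. Subtracting such a level can leave almost none of the late Cd8a counts, and the ratio then rests on the fraction of a UMI added.

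The antibody ratio did not follow the course of the RNA ratio. The log2 ratio of CD8a to CD8b antibody UMIs was -1.13 to -0.67 in CD4-fated mice at stage 1 and -0.99 to -0.68 in CD8-fated mice. At stage 5 it was -0.79 to -0.06 and -1.11 to -0.27, and the ranges overlapped. None of the 6 stages passed the exact permutation test, with unadjusted p from 0.173 to 0.621. Early in the order the ratio moved toward the alpha chain in the CD4-fated lineage, by 0.29 ± 0.11 (0.16 to 0.46, exact sign-flip p = 0.031). In the CD8-fated lineage the early change was 0.21 ± 0.34 (exact sign-flip p = 0.25), and the lineages did not differ (exact permutation test, adjusted p = 0.602). Wild-type mice rose by 0.17 to 0.28 early and by 0.13 to 0.22 late. The late change was 0.25 ± 0.32 (SD, n = 6) in the CD4-fated and -0.14 ± 0.28 in the CD8-fated lineage, a difference of -0.39 with adjusted p = 0.0455 in the exact permutation test. It rests on few mice, as leaving out any of 9 mice ended the call, and within families it was -0.91 for AND with F5, 0.09 for MHCI-/- with MHCII-/- and -0.33 for OT-II with OT-I.

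**Figure D3:**
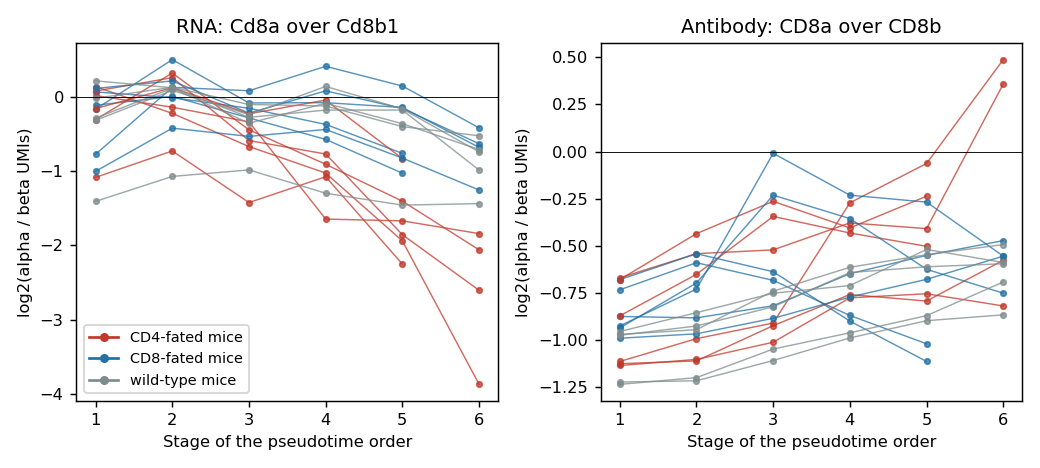
Log2 ratio of alpha chain to beta chain UMIs by stage in RNA (left) and antibody counts (right), with 1 line per mouse and a line at equal counts. In RNA the CD4-fated mice end between -3.87 and -1.84 and the CD8-fated mice between -1.26 and -0.42. In antibody counts the lineages overlap at stage 5.

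Wild-type mice gave a related comparison within an animal, between the branches and with stages 4 to 6 pooled. Cells on neither branch were left out, unlike above. The mix of stages was not matched between the branches, and its part in the values was not tested. Wild-type cells of these stages on the CD4 branch had 19.4 to 117 CPM of Cd8a (median 28.3, 5 mice) and those on the CD8 branch 547 to 791 CPM (median 718). Cd8b1 was 42.8 to 335 CPM (median 56.6) and 1050 to 1474 CPM (median 1061). WT replicate 5 held both upper values on the CD4 branch, with 15 Cd8a and 43 Cd8b1 UMIs in 45 cells. The log2 RNA ratio was lower on the CD4 branch in 5 of 5 mice, at -0.93 against -0.42, -1.13 against -0.72, -0.76 against -0.61, -1.13 against -0.55 and -1.49 against -1.43 in replicates 1 to 5. No test was made, since the branches were defined in these cells and 5 mice cannot give a sign-flip p below 0.0625. The antibody ratio had a mean of -0.67 ± 0.23 (SD, n = 5) on the CD4 and -0.65 ± 0.15 on the CD8 branch.

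Most cells carried both chains or neither on their surface. A cell was counted as positive for a chain when its antibody count passed a threshold of its lane. This was the geometric mean of the median of DP-like cells, quiescent and signaled together, and the median of the class with the lowest median. For CD8a these thresholds were 55.6 to 143 per 10000 in 17 lanes but 253 and 399 in the F5 lanes. The lowest class there was DN-like cells that themselves carry CD8, so that shares of F5 mice are not on the same footing as the others. The DP-like median of CD8a ran from 212 per 10000 in AND replicate 1 to 837 in F5 replicate 1, so the thresholds of the other mice are unequal too. At stage 1, 98.3% to 100% of the cells of a CD4-fated mouse were positive for both chains. The share was 25.7% to 89.5% at stage 3, 4.43% to 21.3% at stage 4 and 1.04% to 3.38% at stage 5. In CD8-fated mice it was 52.2% to 97.6% at stage 3, 79.3% to 99.4% at stage 5 and 98.6% to 99.4% at stage 6 (4 mice). Cells positive for alpha alone peaked in CD4-fated mice at 1.16% to 9.85% at stage 3 and 2.21% to 5.42% at stage 4, and were 0% to 0.694% at stage 5. In CD8-fated mice the alpha-only share was 0.8% to 10.4% at stage 3. The beta-only share at that stage was 0% to 9.52% in the CD4-fated and 1.33% to 10.99% in the CD8-fated mice, ranges that overlap those of the alpha-only share. In wild-type mice 49.0% to 74.5% of cells were positive for both at stage 6 and 24.1% to 50.6% for neither.

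Genes that act on or with CD8 were read in the same fits, from lists chosen with results of these data known. Stage 6 differences of all lists rest on the MHCI-/- and MHCII-/- mice, as above. Of 2 repressors of the Cd8 genes, Zbtb7b, which encodes the CD4 lineage factor THPOK, was lower in CD8-fated mice at 4 of the 5 stages at which it was tested, and Patz1, which encodes MAZR, was called at none of 6. Over all genes tested, 1.23%, 3.12%, 2.26% and 2.25% were called lower in CD8-fated mice at stages 3 to 6, against the 0.86%, 2.72%, 2.32% and 3.24% called higher. Zbtb7b differed by -3.52 ± 0.59 on the log2 scale at stage 3 (edgeR, adjusted p = 0.0026) and by -7.18 ± 0.36 at stage 6. Zbtb7b, Gata3 and Runx3 were among the markers that drew the branches, and cells on the branch of the other lineage were left out. Their differences are therefore not independent of that step. Among 12 activators of the Cd8 genes, 1 was called higher and 1 lower at each of stages 3 and 4, 1 higher and 2 lower at stage 5, and 2 higher and 4 lower at stage 6. The higher one at every one of these stages was Runx3, the CD8 lineage factor, which differed by 1.51 ± 0.21 at stage 3 and 2.52 ± 0.36 at stage 6. Runx1, its relative, was lower in CD8-fated mice at stages 5 and 6, by -1.36 ± 0.19 and -1.71 ± 0.22, and so were Bcl11b, a T cell identity factor, by -0.65 ± 0.14 and -0.90 ± 0.20, and Il7r, the IL-7 receptor, at stages 4 and 6, by -1.84 ± 0.33 and -0.92 ± 0.22. The rest of the calls, named after their values were seen, were Lef1, lower by -0.89 ± 0.18 at stage 3, Tcf7, lower by -0.95 ± 0.20 at stage 6, and Eomes, higher at stage 6. Median differences of the 11 or 12 activators tested lay between -0.54 and -0.08 over stages 3 to 6, where the median over all genes lay between -0.0018 and 0.0099.

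The other coreceptor gene mirrored both chains. Cd4 RNA was lower in CD8-fated mice by -2.94 ± 0.41 on the log2 scale at stage 4 (edgeR, adjusted p = 1.5e-04), -3.89 ± 0.40 at stage 5 and -5.95 ± 0.29 at stage 6, and was not called at stage 3 with -0.81 ± 0.43. Of the CD4 fate factors, Gata3, a marker of the CD4 branch as said above, was lower in CD8-fated mice at stages 3 to 6, by -1.63 ± 0.28 at stage 3. Tox was lower at stage 4 alone, by -0.74 ± 0.16. Of 10 genes that signal with the TCR and coreceptor, Themis, a TCR signaling adaptor, was higher in CD8-fated mice at stages 3 and 4, by 0.66 ± 0.15 and 0.60 ± 0.15, and Cd247, the TCR zeta chain, was lower at stages 4 to 6, by -0.83 ± 0.15 at stage 4. The other 8 of this list, Lck among them, were called at no stage.

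Other receptors of the immunoglobulin family on cytotoxic cells were called in the direction of CD8. Of 4 such genes, 3 of 4 tested were higher in CD8-fated mice at stage 4, 4 of 4 at stage 5 and 2 of 4 at stage 6, where 2.72%, 2.32% and 3.24% of all genes tested were higher. Cd160 differed by 3.31 ± 0.38, 4.78 ± 0.35 and 5.41 ± 0.51 on the log2 scale at these stages, and Crtam, a cell adhesion receptor, by 2.57 ± 0.48, 2.42 ± 0.32 and 2.11 ± 0.42. A list of 8 genes of the MHC class I pathway holds B2m, 4 heavy chains and the peptide transport and loading genes Tap1, Tap2 and Tapbp. Of these, 4 of 7 tested were lower in CD8-fated mice at stage 5, where 2.26% of all genes were, and 1 of 7 was higher at stage 6. The latter was B2m, by 4.12 ± 0.36, and the CD4-fated mice on which this value rests, MHCI-/-, all lack this gene. At stage 5, with mice of all families, B2m differed by 1.11 ± 0.61 and was not called (edgeR, adjusted p = 0.408). At stage 5 H2-K1, H2-D1 and H2-Q7 differed by -0.67 ± 0.14, -0.50 ± 0.13 and -1.44 ± 0.35, and Tap1, named after its value was seen, by -0.56 ± 0.14. Glycosylation enzymes can alter how CD8 binds its ligand. Of a list of 6, 4 were tested at stage 1 and 5 at stages 2 to 6. St6gal1 was lower at stage 4, by -0.73 ± 0.20, where 3.12% of all genes tested were, and no other of those tested was called at any stage.

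The chains were next compared across the cell types of the thymus. Clusters, formed without the coreceptor genes and without antibodies, were named from marker genes into 14 classes, and 6863 of 69233 cells stayed unnamed. No cluster could be named CD4 SP-like. The leading genes of the largest mature SP-like cluster include Zbtb7b beside S1pr1 and Ccr7, and 3 clusters with Zbtb7b among their leading genes stayed unnamed. Quiescent DP cells have stopped dividing and, except in the Rag1-/- AND and F5 mice, rearrange their TCR alpha chain. Quiescent DP-like cells had the highest mean of all 4 quantities over classes present in at least 3 mice. Cd8a RNA there was 1008 to 2561 CPM (median 1796, 17 mice), Cd8b1 RNA 1376 to 4216 CPM (median 2812), CD8a protein 563 to 975 per 10000 (median 768) and CD8b protein 1231 to 1813 per 10000 (median 1409). These levels are shares of all UMIs, and the classes differ in RNA content. The median was 2395 RNA UMIs per quiescent DP-like cell and 10252.5 per cycling-like cell. The order of classes in UMIs per cell can therefore differ, and was not tested.

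The cluster led by Hbb-bs and Hba-a1, called erythrocyte-like from these markers, goes against that name in its CD8 counts, since 72.4% to 100% of its cells passed the CD8a threshold (median 90.6%, 12 mice). It held 1162 ± 538 CPM of Cd8a and 1969 ± 1136 CPM of Cd8b1 (SD, 12 mice), next below quiescent DP-like cells in both RNAs, and is not read here as the level of a cell type. Its values differed from quiescent DP-like cells (exact sign-flip test, adjusted p = 0.0239 for Cd8a and 0.0103 for Cd8b1) and from the next class (adjusted p = 0.0239 and 0.00342). The class named CD8 SP-like was not alike in all mice. In 5 CD4-fated mice 2.17% to 73.7% of its cells passed the CD8a threshold described above and Cd8a RNA was 15.9 to 461 CPM, whereas in 11 CD8-fated and wild-type mice 80.8% to 99.3% passed and Cd8a RNA was 499.8 to 878 CPM (mean 743 ± 112). In the CD4-fated mice the name therefore goes against the CD8 counts of many cells.

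Without the CD4-fated mice, a choice made after seeing the data, CD8 SP-like cells did not differ in Cd8a RNA from cycling-like cells (mean difference 7.24 ± 196 CPM, adjusted p = 0.886) or from signaled DP-like cells (95.7 ± 275 CPM, adjusted p = 0.336) beyond the spread of 11 mice in the exact sign-flip test. Their Cd8b1 RNA was 1154 ± 186 CPM and higher than in cycling-like cells in 8 of 11 mice, by 224 ± 262 CPM, which did not pass (exact sign-flip test, adjusted p = 0.0562). Over all mice, cycling-like cells had 695 ± 273 CPM of Cd8a and 810 ± 369 CPM of Cd8b1 (SD, 17 mice), and signaled DP-like cells 575 ± 314 and 711 ± 411 CPM. CD8b protein was lower in cycling-like than in quiescent DP-like cells, by a mean of 291 per 10000, in 15 of 17 mice (exact sign-flip test, adjusted p = 0.000854). CD8a protein was 762 ± 111 in quiescent DP-like and 729 ± 172 per 10000 in cycling-like cells (exact sign-flip test, adjusted p = 0.521). In the 5 wild-type mice these means were 761 and 796. From 63.6% to 97.5% of the cycling-like cells of a mouse passed the CD8a threshold, so this class was not alike in all mice.

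At the low end stood NKT-like, gamma-delta T-like and B-like cells. NKT-like cells had 41.6 ± 26.4 CPM of Cd8a and 60.9 ± 67.2 CPM of Cd8b1 (SD, 6 mice), and gamma-delta T-like cells 34.8 ± 21.4 and 40.9 ± 18.2 CPM (7 mice). The latter class came mostly from TCR-transgenic animals, with 2218 of its 2302 cells, and 6 of these 7 mice, from AND, OT-I and OT-II and at most 21 cells from any wild-type mouse. Their CD8a protein was 56.1 ± 18.5 and 51.5 ± 17.9 per 10000. B-like cells, which should lack CD8, were 102 in all, with CD8a protein of 28.2 to 76.4 per 10000 and CD8b protein of 25.6 to 118 in the 3 mice with at least 20 of them. Mature SP-like cells spread widely between mice, from 10.6 to 161 per 10000 of CD8a protein (median 34.1, 13 mice), also among wild-type mice. The values were 19.4 to 28.9 in WT replicates 1 to 3, which were sorted, and 161 and 127 in WT replicates 4 and 5 of experiment 3, which were not. All 6 mice of experiment 3 lay at 89.1 or above and the 7 of experiments 1 and 2, the unsorted AND mice among them, at 34.1 or below, and among the wild-type mice experiment and sort cannot be told apart.

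After each cell was thinned to 1000 RNA UMIs, 80.6% of quiescent DP-like cells held a Cd8a UMI and 93.6% a Cd8b1 UMI, against 92.9% and 98.4% unthinned at a median of 2395 UMIs. These and the following shares pool the cells of all mice. As means of 17 mice the thinned shares of quiescent DP-like cells were 78.5 ± 9.5% and 87.7 ± 9.2% (SD). In B-like cells the shares were 2.94% and 11.8% (7.84% and 17.6% unthinned at a median of 3456 UMIs). Among the 3 mice with at least 20 of these cells, WT replicate 5 held all of the UMIs of both genes, 11 of Cd8a and 29 of Cd8b1 in 26 cells. The other 2 mice had none in 47 cells, which allows a share of up to 6.38%, counting error only. The background thus rests on 1 mouse of the later set of libraries, and shares of about 5% cannot be told from it. Such shares, 5.07% and 5.38%, were found in gamma-delta T-like cells, and 4.59% and 4.86% in NKT-like cells. CD8 SP-like cells held the genes in 49.3% and 60.2%, and mature SP-like cells in 6.69% and 11.9%. The cluster led by Hbb-bs and Hba-a1 did not serve as background, since 65.7% and 67.7% of the 638 cells with enough UMIs held the genes and CD8a protein was 528 ± 128 per 10000 (SD, 12 mice). These cells had a median of 1009 UMIs. DN-like cells, which by name should lack CD8, had Cd8a UMIs in 25.0% (18.6 ± 12.3%, SD, as a mean of 6 mice) and CD8a protein of 71.0 to 423 per 10000 over 6 mice. The OT-II mice gave 663 and 375 of the 1473 DN-like cells, and 63.0% and 49.3% of these passed the CD8a threshold. In WT replicates 4 and 5 it was 8.54% and 12.2%, and in the F5 mice, with their higher thresholds, 29.7% and 24.2%.

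**Figure D4:**
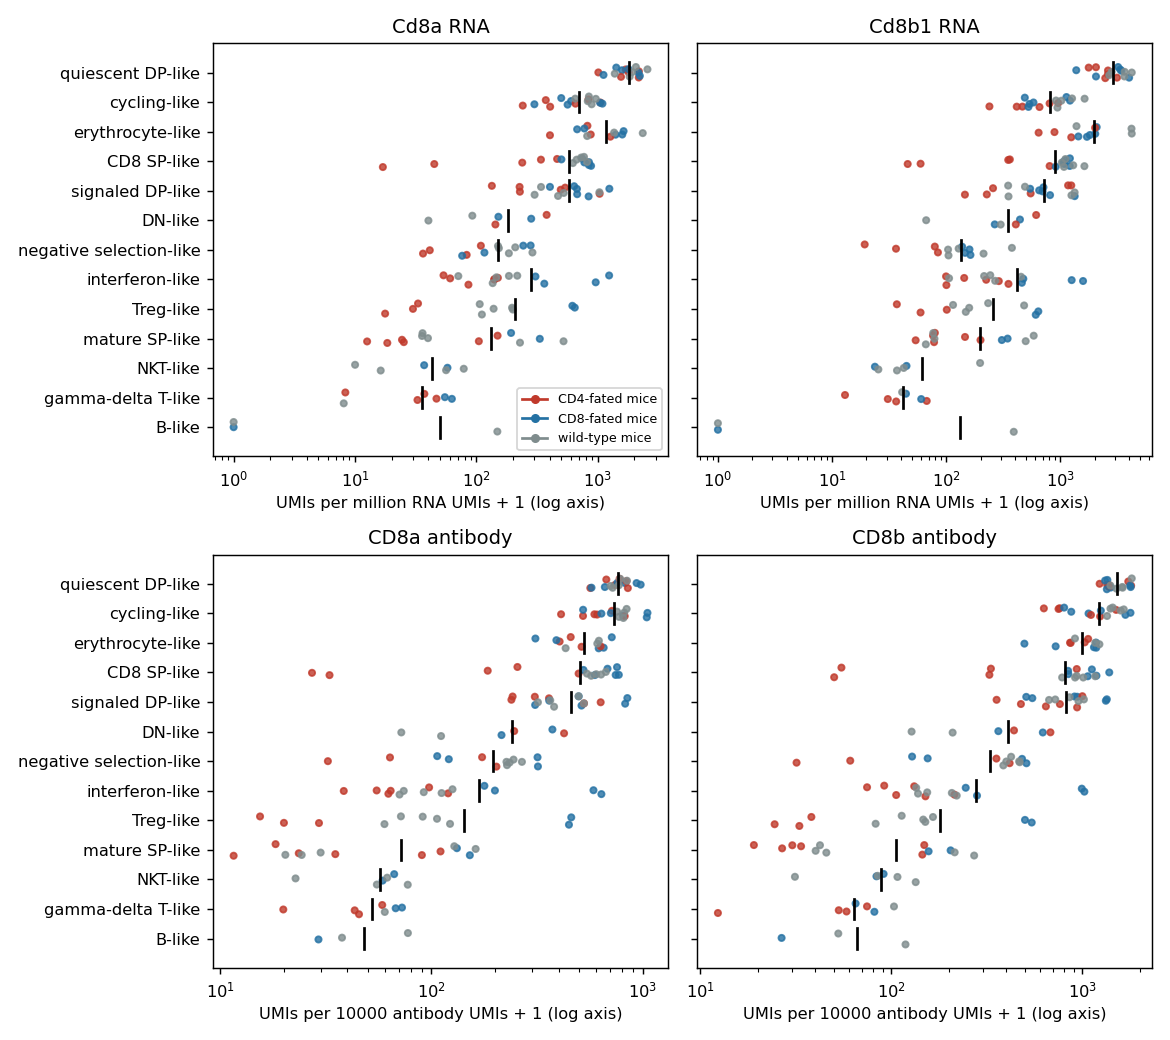
Level of each chain in each named class, with 1 point per mouse with at least 20 cells in the class and a bar at the mean, on log axes after adding 1. Quiescent DP-like cells lead all 4 panels, with a mean of 1788 CPM of Cd8a. NKT-like, gamma-delta T-like and B-like cells lie at the low end.

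The balance of the chains was set against quiescent DP-like cells of the same mouse, for 11 classes with enough cells in at least 6 mice. In RNA 3 of 11 classes differed, all toward the alpha chain. Negative selection-like cells, led by genes such as Nr4a1 and Bcl2l11, were higher in the log2 ratio of Cd8a to Cd8b1 by 0.95 ± 0.43 (SD, higher in 13 of 13 mice, exact sign-flip test, adjusted p = 0.000597). Cycling-like cells were higher by 0.48 ± 0.24 (17 of 17 mice, adjusted p = 0.000168) and signaled DP-like cells by 0.41 ± 0.35 (16 of 17 mice, adjusted p = 0.000336). CD8 SP-like cells differed by 0.05 ± 0.49, higher in 11 of 16 mice (exact sign-flip test, adjusted p = 0.73), and by 0.12 ± 0.35 without the CD4-fated mice. Without the later set of libraries 3 of the 8 classes that could be tested passed.

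In antibody counts all 11 classes had a higher ratio of CD8a to CD8b than quiescent DP-like cells. The difference was smallest in the cluster led by Hbb-bs and Hba-a1, at 0.09 ± 0.14 (SD, 12 mice), and 0.13 ± 0.15 in signaled DP-like, 0.27 ± 0.15 in cycling-like and 0.30 ± 0.19 in CD8 SP-like cells, the last higher in 14 of 16 mice and at 0.34 ± 0.19 without the CD4-fated mice. It was 0.47 ± 0.30 in mature SP-like, 0.52 ± 0.12 in Treg-like and 0.85 ± 0.46 in gamma-delta T-like cells. The last include the Rag1-/- AND mice, in which the name goes against the genotype. The ratio was higher in every mouse of each of these classes (13, 10 and 7 mice). In the 2 MHCII-/- mice among these, 94.7% and 90.5% of Treg-like cells passed the CD8a threshold, against 2.35% to 21.2% in the other 8 (AND replicate 1, MHCI-/- and wild-type). The exact sign-flip test gave adjusted p from 0.000168 to 0.0491 over the 11 classes. In mice with 50 cells or more of a class 7 of the 10 classes with 6 such mice passed, and without the later set of libraries 8 of the 8 that could be tested did. Where a class is low in CD8 its ratio rests on antibody counts near those of B-like cells, whose part in the ratio was not tested.

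**Figure D5:**
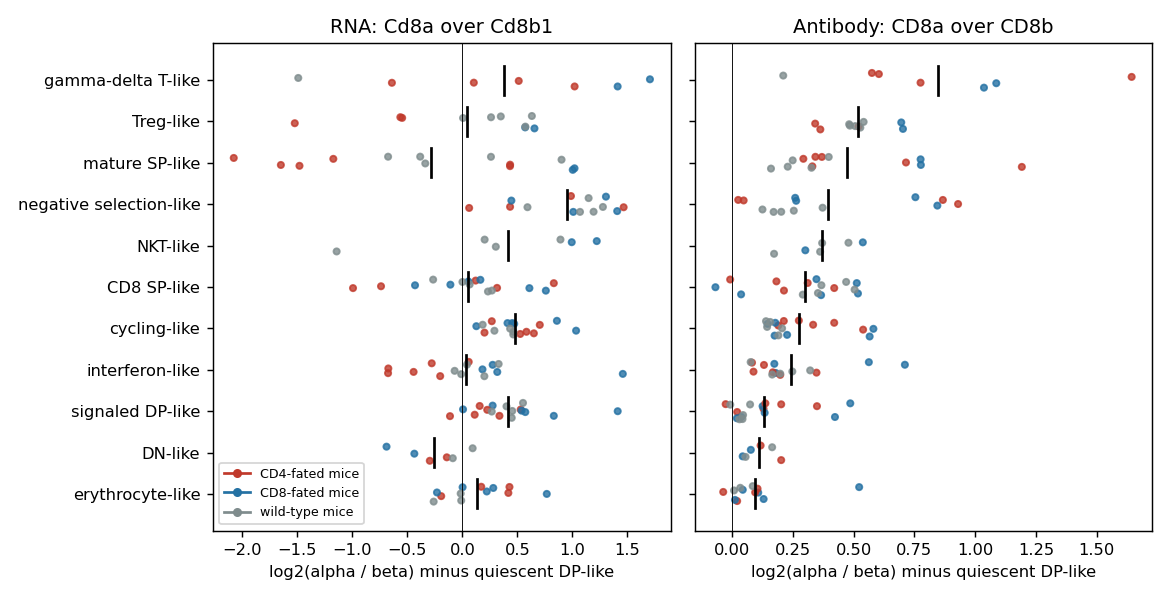
Difference of the log2 ratio of alpha to beta chain UMIs between a class and quiescent DP-like cells of the same mouse, in RNA (left) and antibody counts (right), with 1 point per mouse and a bar at the mean. Negative selection-like cells lead in RNA, with a mean of 0.95, and gamma-delta T-like cells in antibody counts, with a mean of 0.85.

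Cells over the CD8a and under the CD8b threshold were sought in gamma-delta T-like cells, named for a cell type in which an alpha-alpha homodimer is known. In OT-I replicates 1 and 2, 14 and 14 such cells were counted, which is 13.2% and 10.1% of the cells over the CD8a threshold. The reverse, cells over the CD8b threshold alone, numbered 14 and 7 in the same class and mice, although the beta chain needs the alpha chain to reach the surface. In CD8 SP-like cells of these mice the alpha-only share was 0.693% and 0.654%. The classes are not compared, since gamma-delta T-like cells lie near the thresholds, which in OT-I replicate 2 were set from this class, and 2 mice cannot give an exact sign-flip p below 0.5. Between 1.62% and 19.5% of gamma-delta T-like cells passed the CD8a threshold over 7 mice, against 0% to 11.5% of B-like cells in 3 mice. Elsewhere, in mice with at least 20 cells over the CD8a threshold, the alpha-only share was 2.56% to 15.4% in mature SP-like cells (median 6.60%, 7 mice), 0% to 7.5% in interferon-like cells (median 4.35%, 11 mice), 0% to 24.0% in negative selection-like cells (median 4.94%, 11 mice), 0% to 23.8% in Treg-like cells (median 7.69%, 7 mice, the 2 MHCII-/- mice and 5 wild-type mice) 0.0678% to 5.16% in signaled DP-like cells (median 0.810%, 17 mice) and 0% to 0.621% in quiescent DP-like cells (17 mice). In the other classes with 3 mice or more, CD8 SP-like, DN-like, cycling-like and the cluster led by Hbb-bs and Hba-a1, the medians lay between 0% and 0.957%. Myeloid-like cells had under 20 cells over the CD8a threshold in every mouse. The mice with the most, OT-I replicate 1, AND replicate 1 and WT replicate 1, had 13 of 16, 3 of 11 and 2 of 10 alpha-only, and 0 beta-only cells. In the other mice the alpha-only cells were 4 of 5 and 4 of 4 in OT-II and 3 of 7 in OT-I replicate 2. They were 2 of 4 in both AND replicate 2 and WT replicate 5, and 1 of 4 in F5 replicate 2. WT replicate 4 had 0 of 2 and MHCII-/- replicate 2 had 1 of 1, and each of these mice had 0 beta-only cells.

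Over 154 sums of a mouse and a class (17 mice, 14 classes, at least 20 cells), the gene whose log2 level was most like that of each chain was the other chain, with Pearson's r = 0.93 among 9304 genes. These points share mice, libraries and depth, and r is given as a description. The next 4 genes for Cd8a were Rmnd5a (0.77), Gm44175 (0.76), Themis (0.75) and Ets2 (0.74), and for Cd8b1 Themis (0.87), Rmnd5a (0.80), Ets2 (0.80) and Lck (0.79). Of these, Gm44175, a long noncoding RNA on the reverse strand, lies at chr6:71354351-71360829, between Cd8b1 and Cd8a. Rmnd5a, also on the reverse strand, lies at chr6:71388634-71440637, its nearer end 9460 bases beyond that of Cd8a. Themis, Ets2 and Lck are on chromosomes 10, 16 and 4.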

How the data were processed

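The authors deposited UMI counts per gene and antibody for each barcode of a lane, without normalization, made with Cell Ranger 3.1.0 against mm10 per the labels. Barcodes with over 15% mitochondrial UMIs, under 200 genes, under 1000 or over 10000 protein UMIs or under 70 proteins were left out, then 2821 simulated-neighbour doublets. Cells were clustered on RNA (leidenalg 0.10.2) after a gene-wise shift between the library sets of experiment 3 and Harmony correction across experiments. Naming, gate and branch thresholds were set after seeing the data. Sums per mouse were tested with edgeR 4.0.16 (quasi-likelihood, TMM, low-count filter for RNA, family of genotypes as covariate, adjusted p under 0.05), with DESeq2 1.42.0 as an alternative, in R 4.3.3. Ratios, with 0.5 UMI added, and changes of log2(value + 1) were compared by exact two-sided permutation over mice. The edgeR step was tested on simulated data.

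Members and lists were chosen with earlier results of these data known. Besides the members, up to 4 genes of each list, those called in the most stages, and the 5 genes most correlated with each chain were named. Same-numbered mice of a family deviated with r = 0.0306, 0.526 and 0.934 over 5881 genes (AND with F5, MHC, OT), so pairing is an alternative. The models totalVI and Slingshot were not run.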

Additional observations from a re-analysis of the deposited data

Results flagged for a closer look

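Each change along the order that passed the test between the lineages is listed first, as the difference CD8-fated minus CD4-fated on the log2 scale in 6 against 6 mice. Late in the order it was 2.40 for Cd8a RNA, 1.71 for Cd8b1 RNA, 3.04 for CD8a protein, 3.44 for CD8b protein, 0.74 for the RNA ratio and -0.39 for the antibody ratio. Early in the order it was 2.90, 2.33, 1.81 and 1.90 for the levels in the same order and 0.56 for the RNA ratio.

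Single mice stood far from the rest of their group in 5 of 60 checks by Dixon's criterion, where chance gives about 1 in 20. The early change of Cd8a RNA was -4.17 in AND replicate 2, the most negative of the CD4-fated mice. The early changes of CD8a and CD8b protein were -0.97 and -1.14 in WT replicate 5, the smallest falls of the wild-type mice. At stage 6, OT-I replicate 2 had 508 CPM of Cd8a and OT-I replicate 1 had 996 CPM of Cd8b1, each the lowest of 4 CD8-fated mice.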

How the results depend on the processing

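The 4 levels kept their late and early differences between the lineages in all alternatives run (26 for the late and 25 for the early change of each). The late differences fell most in size with doublets kept (1.29 for Cd8a and 1.14 for Cd8b1 RNA, 1.84 for CD8a and 2.20 for CD8b protein). The number of stages with a difference was 3 to 5 for Cd8a RNA (4 as reported), 2 to 4 for each protein (3 as reported), and 2 for Cd8b1 RNA (4 as reported) without the MHC family, where stage 6 could not be fitted.

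Both ratios were less stable. The RNA ratio passed at 0 stages, and at 1 with the lowest class level subtracted, 1 with the maturation score as order, 3 with Cd8a, Cd8b1 and Cd4 kept among the ordering genes, 4 with doublets kept, 3 without sub-clusters holding under 5% wild-type cells, and 0 to 2 leaving out 1 mouse (2 without OT-II replicate 1). Its late difference of 0.74 missed the threshold at 0.77 for stage 6 against stage 4, 0.46 with the maturation score, 0.38 with the coreceptor genes kept, 0.16 with doublets kept, 0.0601 with cells of the other branch kept and 0.46 without those sub-clusters. Its early difference of 0.56 missed it at 0.58 without the AND and F5 family, 0.58 without the MHC family, and without either AND or MHCI-/- mouse (adjusted p = 0.0623 to 0.0649, exact permutation), with 0.44 to 0.66 over single mice left out. For the antibody ratio, the late difference of -0.39 missed the threshold at -0.39 when permuted within families, -0.49 for stage 6 against stage 4, -0.33 with the coreceptor genes kept, -0.39 without those sub-clusters, -0.12 without AND and F5, -0.41 without OT, -0.41 without the later set of libraries and -0.46 to -0.27 over single mice left out, where either AND, MHCI-/-, F5 or OT-I mouse or OT-II replicate 1 ended the call (adjusted p = 0.0519 to 0.0996, exact permutation). It reversed to 0.37 with the lowest class level subtracted. Its early difference of -0.08 was 0.0136 with the maturation score and 0.11 without AND and F5, both reversed, and passed at -0.27 without OT. The count of 11 classes for the antibody ratio was 7 of 10 tested with at least 50 cells and 9 to 11 over single mice left out, where each class tested passed. Over all mice, Cd8a RNA of CD8 SP-like cells differed from signaled DP-like cells by -0.336 CPM, which reversed to 95.7 CPM without the CD4-fated mice, neither past the threshold. The cause was not tested for any of these.

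With same-numbered mice of a family as a replicate block, the late difference in the RNA ratio kept its call (0.74, adjusted p = 0.0375, exact) and that in the antibody ratio lost it (-0.39, adjusted p = 0.125). Same-numbered mice did not deviate together in the AND and F5 family (r = 0.0306), so the numbers do not pair all mice.

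Counts near 0 limit the late ratio, with 2 Cd8a UMIs in 1 mouse at stage 6, and 2 mice per genotype limit all genotype means.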
